A study of Homo sapiens with 4 samples.

Results

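Immediate early and stress response genes are represented here by 10 genes: FOS, JUN, JUNB, EGR1, ATF3, MYC, KLF4, DUSP1, IER2 and NR4A1. Their chromatin was read by ATAC-seq, in which a transposase inserts sequencing adapters into accessible DNA, in K562, an established human line from a chronic myelogenous leukaemia. The cells received doxorubicin (Doxo) at 10 µM, N,N-dimethyldoxorubicin (diMe-Doxo) at 10 µM or aclarubicin (Acla) at 20 µM, each for 4 h, or were left untreated, with 1 GEO sample per group. For each drug the authors deposited a list of regions with more reads than in the untreated control. A region was counted for a gene when it shared at least 1 bp with the gene's GRCh37 span, rounded to 1 kb, extended by 10 kb on each side. Of 100205 regions in any of the 3 lists, 17 met this rule, and they lay at 7 of the 10 genes. FOS, JUNB and MYC had 0 regions in any list.

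Immediate early genes are transcribed within minutes of a growth factor, a stress or DNA damage without new protein synthesis, mainly through transcription factors that already sit at their promoters. Most of them encode transcription factors, such as the FOS and JUN proteins that pair as AP-1, while others, such as DUSP1, switch off the kinases that induced them. Doxorubicin is an anthracycline that intercalates into DNA, traps topoisomerase II on broken DNA and evicts histones. Dimethylation of the amine on its sugar gives diMe-Doxo, and aclarubicin has more sugars than doxorubicin. Either compound still evicts histones while breaking little DNA.

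Each list gives values for 2 treated and 2 control libraries, and no label tells if paired libraries are separate cultures, so their spread may be technical. Control reads were identical at all 33140 regions listed for Doxo and diMe-Doxo, so the comparisons share their controls. Recovered reads inside listed regions numbered 3534855 to 7266289 per treated library, and the full depth is unknown. The lists hold gained regions only (a log2 fold of at least 1.5 and p of at most 0.05 in the authors' deposited tables). A gene or region that is not listed may have been open already, may have gained less or may have lost signal, and defining markers of K562 could not be checked for the same reason. In bulk libraries, more access in every cell and access in more cells cannot be told apart.

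All 17 regions were listed for Doxo, 8 (47.1%) were listed for diMe-Doxo and 5 (29.4%) for Acla. Over all 100205 regions, the Doxo list held 66.6%, the diMe-Doxo list 52.7% and the Acla list 61.2%. At these genes the Doxo share was therefore above its background and the Acla share below it, without a test, since regions of 1 gene share a locus. By set of drugs, 8 regions (47.1%, background 29.5%) were listed for Doxo alone and 4 (23.5%, background 28.7%) for all 3 drugs. Another 4 were listed for Doxo and diMe-Doxo (23.5%, background 4.40%) and 1 for Doxo and Acla (5.88%, background 4.04%). None of the 17 was listed for diMe-Doxo alone (background 4.97%), for Acla alone (13.8%) or for that pair without Doxo (14.6%). Doxo regions lay at 7 genes, diMe-Doxo regions at 4 (JUN, ATF3, KLF4 and NR4A1) and Acla regions at 3 (ATF3, IER2 and NR4A1).

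**Figure D1:**
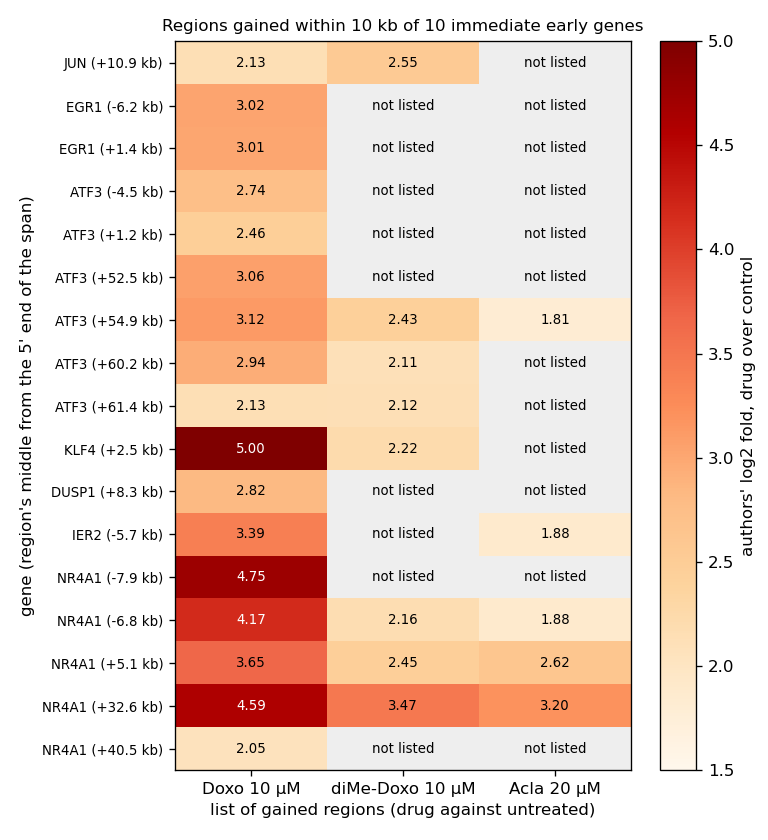
Authors' log2 fold of each drug over the untreated control at the 17 regions (rows, with the distance of the region's middle from the 5' end of the gene span in kb) in the 3 lists (columns); grey cells mark regions that a list does not hold. The Doxo column is full, with the highest values at KLF4 (5.00) and NR4A1 (4.75 and 4.59), while 8 regions are listed for diMe-Doxo and 5 for Acla.

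Doxo gains at these genes were close in size to the rest of the Doxo list. Over the member regions the median log2 fold in the authors' deposited table was 3.02 for Doxo (range 2.05 to 5.00), against 2.95 over the whole Doxo list. For diMe-Doxo it was 2.33 (2.11 to 3.47) in the authors' deposited table, against 2.52 over that list, and for Acla 1.88 (1.81 to 3.20), against 2.62. The Acla median rests on 5 regions, 3 of them at NR4A1, and was 2.62 without extension of the spans, 3.05 without control library 1 and 1.24 without control library 2, so its place beside the list is not settled. With a stricter limit of 0.01 on the FDR and 2 on the log2 fold in the authors' deposited tables, 10 of 17 regions were kept for Doxo (48.8% of that list), 3 of 8 for diMe-Doxo (38.1%) and 2 of 5 for Acla (42.8%). The neighbouring genes in RefSeq on the side of a region outside a span are MYSM1 for JUN, REEP2 for EGR1, NENF and GARIN4 for ATF3, NEURL1B for DUSP1, STX10 for IER2, and TAMALIN and ATG101 for NR4A1, and which gene a region bears on was not tested. The regions were 283 to 2121 bp wide, with a median of 1020 bp. Upstream of a span lay 5 regions, 7 overlapped a span and 5 lay downstream.

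Among the genes of the basic leucine zipper family, ATF3 had 6 listed regions in an extended span of 77 kb, JUN had 1 in 24 kb, and FOS (24 kb) and JUNB (23 kb) had 0. ATF3, a repressor and activator induced by many stresses, had 6 regions around its 57 kb span on chromosome 1, all in the Doxo list, 3 also in the diMe-Doxo list and 1 in the Acla list. They fell into a pair at the 5' end and a group of 4 at the 3' end, with middles at -4.5 and 1.2 kb and then at 52.5, 54.9, 60.2 and 61.4 kb from the 5' end. RefSeq also gives ATF3 a second start farther into the gene (windows before the starts at 212565157-212565406 and 212614768-212615017 on GRCh38.p14). Distances here are from the 5' end of the span only. The region with the lowest FDR at ATF3 in any list (chromosome 1 at 212798667-212800050, 3.7 kb downstream) had 45.5 and 47.2 normalized reads in Doxo libraries, against 8.65 and 12.5 in the controls. With diMe-Doxo it had 73.6 and 68.1 normalized reads, against 14.4 and 18.2 in the controls on the scale of that list. Drug and control libraries did not overlap in either list, and the log2 fold in the authors' deposited tables was 2.13 for Doxo (FDR 0.0138) and 2.12 for diMe-Doxo (FDR 0.00433). No peak had been called there in either Doxo library, while a peak had been called in each diMe-Doxo library.

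Inside the ATF3 span 3 regions gained. At the 5' end (chromosome 1 at 212739001-212739416), Doxo libraries had 5.69 and 9.86 normalized reads, against 1.44 and 1.39 in the controls, which is 8 and 14 reads against 1 and 1. This was the weakest signal of the 17, listed for Doxo alone with a log2 fold of 2.46 in the authors' deposited table (FDR 0.0741). Near the 3' end (212790138-212790861), Doxo libraries had 33.4 and 26.1 normalized reads, against 5.76 and 1.39, again in the Doxo list alone (log2 fold 3.06 and FDR 0.00456 in the authors' deposited table). The next region (212792597-212793301) was the only ATF3 region of all 3 lists. It had 29.9 and 19.7 normalized reads with Doxo (controls 4.32 and 1.39), 26.8 and 23.0 with diMe-Doxo (controls 7.22 and 2.03) and 20.6 and 18.1 with Acla (controls 8.55 and 2.44). In each list its drug libraries lay above both controls, and the log2 folds in the authors' deposited tables were 3.12, 2.43 and 1.81 (FDR 0.00531, 0.0138 and 0.0759). No peak had been called there in either Doxo library. The remaining ATF3 regions lay 4.4 kb upstream (Doxo alone) and 2.8 kb downstream (Doxo and diMe-Doxo), with Doxo log2 folds of 2.74 and 2.94 in the authors' deposited table.

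JUN, the AP-1 subunit that can act as a homodimer, had 1 region, 6.6 kb downstream of its span (chromosome 1 at 59238832-59239405). It held 10.7 and 7.74 normalized reads in Doxo libraries, against 1.44 and 2.77 in the controls, and 26.3 and 11.5 with diMe-Doxo, against 2.41 and 4.05. These are few reads, 15 and 11 with Doxo and 59 and 25 with diMe-Doxo, and the FDR in the authors' deposited tables was 0.0892 for Doxo and 0.0309 for diMe-Doxo.

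EGR1 and KLF4, zinc finger transcription factors, each gained a region inside the span close to the 5' end, whereas FOS and JUNB, classic serum-induced AP-1 genes, had no listed region. The 250 bases before the start of these 4 genes are shown to set these cases side by side (RefSeq, GRCh38.p14, read in the direction of the gene). They stand at chr5:138465229-138465478 (plus strand) for EGR1, chr9:107489770-107490019 (minus) for KLF4, chr14:75278578-75278827 (plus) for FOS and chr19:12791236-12791485 (plus) for JUNB. Capitals mark matches on either strand to TGACG, the core of the cAMP response element, and to the CArG box bound by serum response factor. The lists use GRCh37, so the exact place of these bases beside the regions was not computed. By the spans, rounded to 1 kb, the EGR1 region starts at 137801700, past the 5' end at 137801000. The KLF4 region ends at 110251528, short of the 5' end at 110253000 (minus strand). By these rounded spans, no listed region reaches the bases shown for any of the 4 genes.
EGR1: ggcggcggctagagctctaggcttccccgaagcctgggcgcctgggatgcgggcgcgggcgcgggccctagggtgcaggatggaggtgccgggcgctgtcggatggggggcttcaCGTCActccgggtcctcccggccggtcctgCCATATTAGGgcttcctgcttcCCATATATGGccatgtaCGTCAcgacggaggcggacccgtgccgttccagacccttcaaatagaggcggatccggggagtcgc
KLF4: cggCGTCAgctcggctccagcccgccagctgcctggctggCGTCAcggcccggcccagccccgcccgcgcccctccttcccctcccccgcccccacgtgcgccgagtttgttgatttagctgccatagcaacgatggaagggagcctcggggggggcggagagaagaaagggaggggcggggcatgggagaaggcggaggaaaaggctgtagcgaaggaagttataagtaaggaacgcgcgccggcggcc
FOS: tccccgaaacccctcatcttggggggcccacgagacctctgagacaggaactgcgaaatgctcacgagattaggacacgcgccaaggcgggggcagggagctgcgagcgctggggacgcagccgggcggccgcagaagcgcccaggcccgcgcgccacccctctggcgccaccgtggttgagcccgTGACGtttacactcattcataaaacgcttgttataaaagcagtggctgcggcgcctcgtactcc
JUNB: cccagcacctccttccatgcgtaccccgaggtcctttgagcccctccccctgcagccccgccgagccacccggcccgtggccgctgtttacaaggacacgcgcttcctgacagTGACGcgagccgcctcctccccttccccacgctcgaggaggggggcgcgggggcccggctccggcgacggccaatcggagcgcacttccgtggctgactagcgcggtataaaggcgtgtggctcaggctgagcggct

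Of the member genes 9 matched this promoter table, with 11 windows, since ATF3 and NR4A1 each have a second start. The TGACG core was present in 7 of the 11 windows and in 21.2% of all 35116 windows of the same length, on either strand. The core holds CG. Member windows with it were 62 to 74.4% G and C, and those without it 44.8 to 69.6%. The 35116 windows were not matched for base composition, so the 2 shares do not mark a trait of these genes. The full element TGACGTCA, which holds a core on each strand, was in 1 member window, that of DUSP1, and in 1.65% of all windows. A CArG box was in 1 member window and in 1.16% of all windows. It is that of EGR1, where matches ran from 105 to 96 and from 83 to 74 bases before the start. Bases farther upstream than these windows were not searched. A window without a match, such as that of FOS, therefore does not show that the gene lacks a CArG box. The AP-1 motif TGANTCA was in 0 of the 11 windows and in 6.57% of all. Only this exact pattern was counted, and variants of it were not searched for. The TGACG core was in the windows of FOS and JUNB, with no listed region, as in those of EGR1 and KLF4.

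EGR1, induced by mitogens and many stresses, was listed for Doxo alone, at 2 regions. The region inside its span (chromosome 5 at 137801700-137803148, middle 1.4 kb from the 5' end) had 227 and 253 normalized reads in Doxo libraries, against 1.44 and 58.2 in the controls. That is 320 and 360 reads against 1 and 42. The Doxo libraries agreed closely and lay above both controls, while the control libraries differed widely from each other. Its log2 fold in the authors' deposited table was 3.01 (FDR 0.0338), and over the higher control library alone it was 2.05. The other EGR1 region, 5.4 kb upstream (137793892-137795643), had 104 and 118 normalized reads in Doxo libraries, against 25.9 and 1.39, a log2 fold of 3.02 in the authors' deposited table (FDR 0.0161). Here it was the other control library that was high.

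KLF4, a zinc finger factor of differentiation and a reprogramming factor, had the highest Doxo gain of the 17 regions. The region (chromosome 9 at 110249407-110251528, 2121 bp, middle 2.5 kb from the 5' end) had 417 and 460 normalized reads in Doxo libraries, against 25.9 and 1.39 in the controls. With diMe-Doxo it had 116 and 95.6 normalized reads, against 43.3 and 2.03. Drug libraries lay above both controls in each list, and Acla did not list the region. The log2 fold in the authors' deposited tables was 5.00 for Doxo (FDR 0.000144), higher than 95.9% of Doxo regions, and 2.22 for diMe-Doxo (FDR 0.0607), higher than 28.1% of that list. On pooled reads the ratio over control was 32.7 with Doxo (95% exact interval 20.8 to 54.4, counting error only) and 5.06 with diMe-Doxo (3.20 to 8.48).

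NR4A1, an orphan nuclear receptor and an immediate early gene of T cells and many other cells, had 5 regions around its 38 kb span on chromosome 12 and was the gene with most regions listed for all 3 drugs. The region with the lowest FDR (52447708-52449499, 32.6 kb into the span) had 144 and 132 normalized reads in Doxo libraries, against 8.65 and 2.77 in the controls. With diMe-Doxo it had 115 and 89.2 normalized reads, against 14.4 and 4.05, and with Acla 90.8 and 111, against 17.1 and 4.89. In all 3 lists the drug libraries lay well above both controls. Log2 folds in the authors' deposited tables were 4.59 with Doxo (FDR 3.04e-06), 3.47 for diMe-Doxo (FDR 9.56e-05) and 3.20 for Acla (FDR 0.000352), the highest of any member region for diMe-Doxo and for Acla.

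The other NR4A1 region inside the span (52420570-52421590, 5.1 kb from the 5' end) had 44.8 and 43.7 normalized reads with Doxo, 28.6 and 30.8 under diMe-Doxo and 42.6 and 37.3 under Acla. Its controls were 2.88 and 4.16, 4.81 and 6.08, and 5.70 and 7.33 on the scales of the Doxo, diMe-Doxo and Acla lists. All drug libraries lay above both controls, with log2 folds of 3.65, 2.45 and 2.62 in the authors' deposited tables. Upstream of the span lay 2 neighbouring regions. The nearer (52408687-52409746) was listed for all 3 drugs, with log2 folds of 4.17, 2.16 and 1.88 for Doxo, diMe-Doxo and Acla in the authors' deposited tables (FDR 0.000161, 0.0323 and 0.0628). The farther (52407589-52408605) was listed for Doxo alone, with 136 and 134 normalized reads, against 8.65 and 1.39 in the controls, and a log2 fold of 4.75 in the authors' deposited table (FDR 7.82e-06). Downstream, a region of 1988 bp (52455549-52457537) with a peak in both control libraries was listed for Doxo alone, with 89.6 and 93.6 normalized reads, against 30.3 and 13.9, and the lowest Doxo log2 fold of the 17, 2.05 in the authors' deposited table.

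DUSP1 and IER2 had 1 region each, outside their spans. DUSP1, a phosphatase that inactivates MAP kinases, had a region 3.8 kb downstream (chromosome 5 at 172190188-172191240) with 43.4 and 45.1 normalized reads in Doxo libraries, against 1.44 and 11.1 in the controls. The Doxo libraries were nearly equal and above both controls, with a log2 fold of 2.82 in the authors' deposited table (FDR 0.00972), and no other drug listed it. IER2, a nuclear protein of the immediate early response, had a region 5.3 kb upstream (chromosome 19 at 13254965-13255670). It had 19.2 and 40.8 normalized reads in Doxo libraries, against 4.32 and 1.39 in the controls, and 20.6 and 20.0 with Acla, against 8.55 and 2.44. The Doxo libraries differed from each other more than at any other of the 17 regions. Log2 folds in the authors' deposited tables were 3.39 for Doxo (FDR 0.00365) and 1.88 for Acla (FDR 0.0633).

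**Figure D2:**
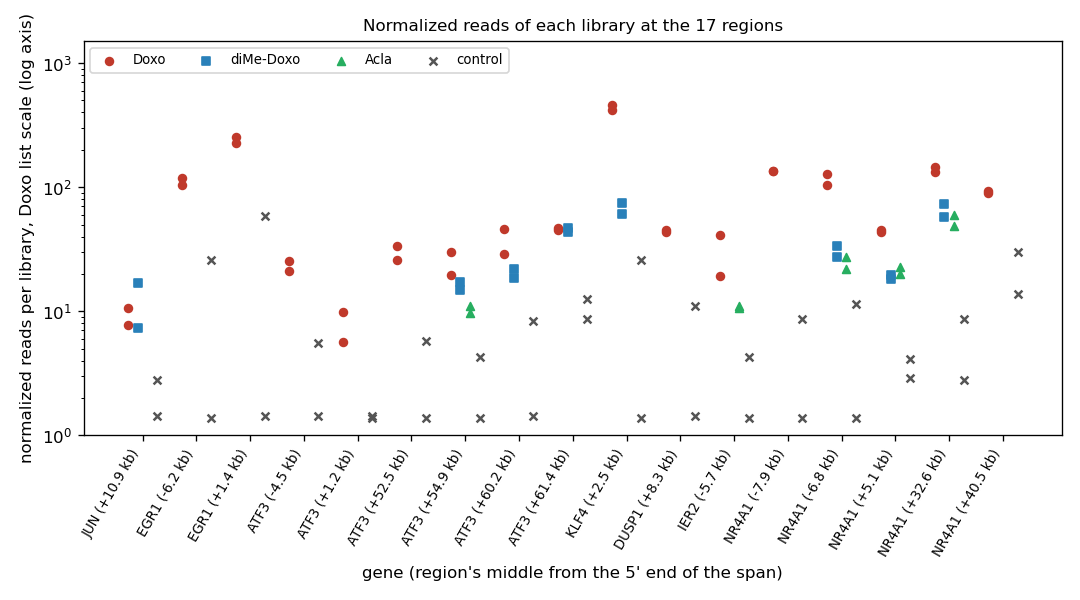
Normalized reads (log axis, on the scale of the Doxo list) of each library at the 17 regions; each symbol is 1 library, with 2 per group, and a drug has symbols only where its list holds the region. Doxo libraries lie above both control libraries everywhere, from 5.69 at ATF3 to 460 at KLF4, and the control libraries of EGR1 and KLF4 lie far apart.

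Doxo and diMe-Doxo differ in structure by the dimethylated amine. Dose and time matched, so their reads were compared at the 8 member regions present in both lists. The lists were normalized separately, so libraries were put on 1 scale through their shared control libraries. On recovered reads, edgeR (quasi-likelihood test, Benjamini-Hochberg adjustment over all 33140 shared regions) called 5 of the 8 higher with Doxo and 0 lower (0 lower also at an unadjusted p under 0.05, and by limma and DESeq2). DESeq2 called 3 of the 8 higher, where it called 19.6% of all shared regions higher. Of all shared regions edgeR called 28.8% higher and 2.84% lower with Doxo. The log2 difference had a median of 0.99 at the 8 regions and 0.28 over all shared regions. With TMM factors the median over all shared regions was -0.05, a shift of the scale that applies to every value below, and 4 of the 8 were called higher, where 23.6% of all shared regions were called higher and 10.7% lower.

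KLF4 differed most. Doxo libraries held 586 and 654 reads there and diMe-Doxo libraries 259 and 208, which is 417 and 460 against 74.0 and 61.2 normalized reads on the Doxo scale. Each Doxo library was above each diMe-Doxo library, with a log2 difference of 2.70 ± 0.21 (SE; edgeR adjusted p 1.10e-35), above that of 96.9% of shared regions. The nearer upstream region of NR4A1 held 147 and 182 reads in Doxo libraries and 117 and 93 in diMe-Doxo libraries, a log2 difference of 1.93 ± 0.24 (edgeR adjusted p 9.32e-15). At 5.1 kb and 32.6 kb into NR4A1 the log2 differences were 1.22 ± 0.31 and 1.08 ± 0.22 (edgeR adjusted p 0.000394 and 4.14e-06), again with the Doxo libraries above both diMe-Doxo libraries on the common scale. Recovered reads were not higher with Doxo there, at 63 and 62 against 64 and 67, and 203 and 187 against 258 and 194. These 2 differences rest on the scale, where 1 read counts 0.711 and 0.704 in Doxo libraries. In diMe-Doxo libraries 1 read counts 0.446 and 0.460, each multiplied by 0.640. With TMM factors the 2 differences were 0.88 and 0.75. The KLF4 difference and those of the upstream and 32.6 kb NR4A1 regions stayed past the limit in every alternative run. The region 5.1 kb into NR4A1 missed the limit with DESeq2 (adjusted p 0.0647; range over all alternatives 0.000104 to 0.0647). With 2 libraries a group, edgeR draws each region's dispersion toward that of the others, and the p-values rest on that. Both libraries of a drug belong to 1 GEO sample, so if they are repeat libraries of 1 culture these p-values cover technical spread only.

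At ATF3 and JUN the difference was smaller or not resolved. The ATF3 region 2.8 kb downstream held 65 and 41 reads in Doxo libraries and 76 and 63 in diMe-Doxo libraries, with a log2 difference of 0.90 ± 0.32 (edgeR adjusted p 0.0164). This call was lost with TMM factors (edgeR adjusted p 0.131), when Doxo library 1 (0.372) or diMe-Doxo library 2 (0.165) was left out, and with DESeq2 (0.325); over all alternatives the adjusted p ranged from 0.00541 to 0.372. The neighbouring ATF3 region, 3.7 kb downstream, had a log2 difference of 0.031 with a 95% interval of -0.48 to 0.54 (edgeR adjusted p 0.959), and its sign was negative with TMM factors (-0.30). The ATF3 region of all 3 lists had a log2 difference of 0.63 (95% interval -0.08 to 1.35, edgeR adjusted p 0.200). JUN was the only one of the 8 with more signal with diMe-Doxo, at -0.40 (95% interval -1.33 to 0.54, edgeR adjusted p 0.616), and the sign turned without diMe-Doxo library 1 (0.32).

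**Figure D3:**
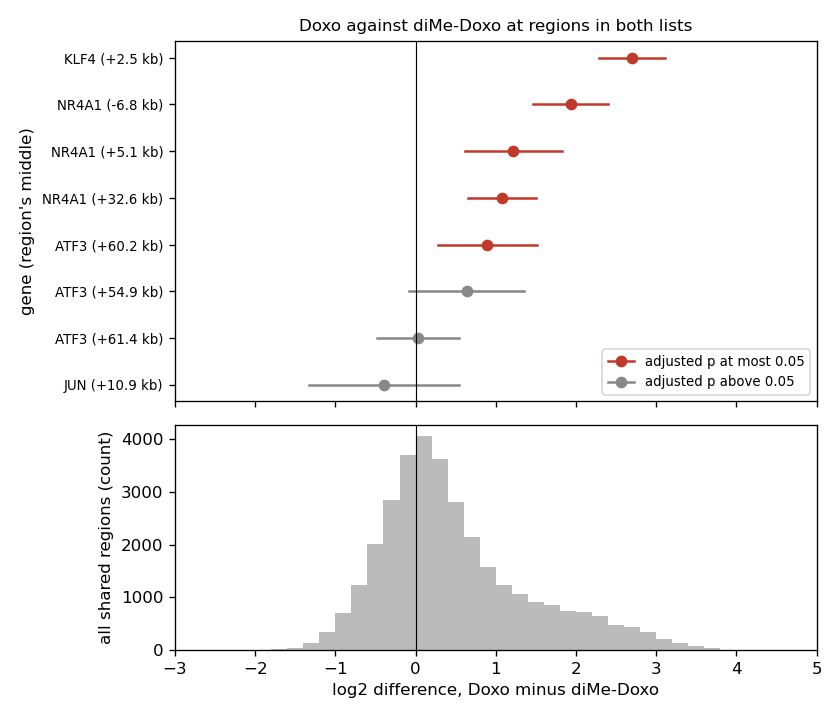
Upper panel, log2 difference of Doxo minus diMe-Doxo at the 8 member regions in both lists (points, edgeR; lines, 95% intervals), and lower panel, the same difference over all 33140 shared regions (bars of 0.2 log2 units). KLF4 (2.70) and the 3 NR4A1 regions (1.93, 1.22 and 1.08) lie to the right of most shared regions, and the lines of JUN and 2 ATF3 regions cross 0.

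Acla was given at 20 µM and Doxo and diMe-Doxo at 10 µM, so Acla values stand beside the others without a test. On the Doxo scale, the 32.6 kb NR4A1 region had 48.6 and 59.7 normalized reads with Acla, beside 144 and 132 with Doxo and 73.7 and 57.1 with diMe-Doxo. The 5.1 kb NR4A1 region had 22.8 and 20.0 with Acla, 44.8 and 43.7 with Doxo and 18.3 and 19.7 with diMe-Doxo. Acla values were thus near those of diMe-Doxo and below those of Doxo at NR4A1. At the ATF3 region of all 3 lists they were 11 and 9.67 with Acla, 29.9 and 19.7 with Doxo and 17.1 and 14.7 with diMe-Doxo.

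The control libraries carried few reads at these regions and often differed. In 13 of the 17 Doxo regions a control library held 1 read, the lowest value in the lists, which may also stand for no read. Low control reads were general, since the median over the whole Doxo list was 1 read in each control library. At 3 of the 17 (EGR1 at both regions and KLF4) a control library held 1 read and the other at least 10, beside 10.3% of the Doxo list. The same held at 1 of 8 diMe-Doxo regions (4.74% of that list), KLF4, and at 0 of 5 Acla regions (3.77%). Over the higher control library alone, the Doxo log2 fold was at least 1.5 at 17 of 17 regions (89.1% of the Doxo list), and KLF4 stood at 4.08. For diMe-Doxo this held at 5 of 8 (78.3% of its list), with KLF4 at 1.29, and for Acla at 2 of 5 (81.7% of its list), the regions inside NR4A1. A control peak had been called at 2 of the 17 regions in the Doxo list, IER2 and the NR4A1 region downstream, beside 17.4% of that list. In the diMe-Doxo list it had been called at 0 of 8 (11.2%) and in the Acla list at 1 of 5 (8.73%), again IER2.

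**Figure D4:**
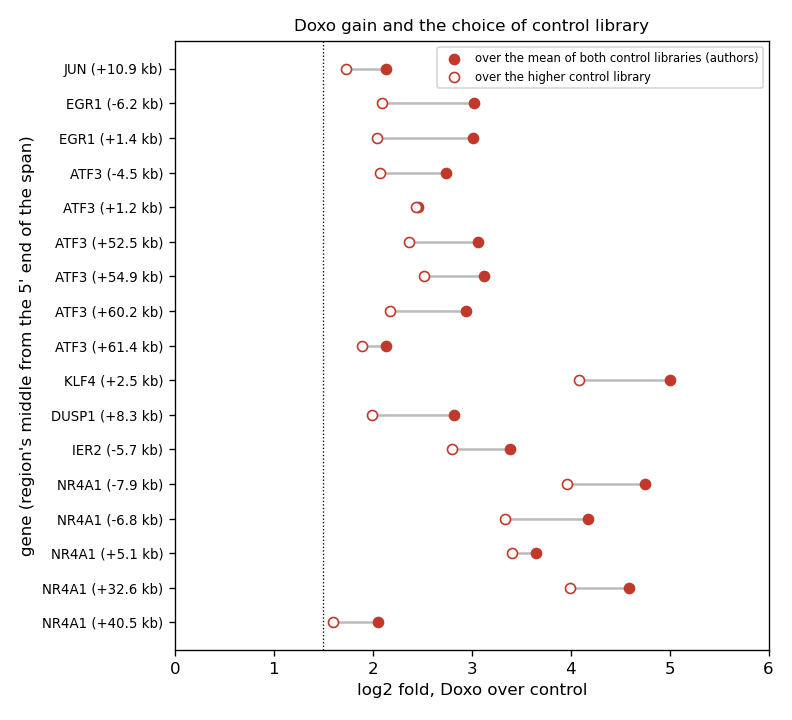
Log2 fold of Doxo over control at the 17 regions, computed over the mean of both control libraries (filled points, the authors' values) or over the higher control library (open points); the dotted line marks the lists' limit of 1.5. All open points stay right of the line, the lowest at 1.60 for the region downstream of NR4A1 and the highest at 4.08 for KLF4.

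The 10 extended spans cover 0.331 Mb and held 51.4 Doxo, 24.2 diMe-Doxo and 15.1 Acla regions per Mb. ATF3 and NR4A1, picked because they had the most regions, held 11 Doxo regions in 135 kb (81.5 per Mb). The other 8 genes held 6 in 196 kb (30.6 per Mb), a contrast that the choice of the 2 genes favours. ATF3 and NR4A1 also have the longest extended spans (77 and 58 kb), and EGR1 had 2 Doxo regions in 24 kb. In the 500 kb on either side of the extended spans (9.34 Mb, overlaps counted once) the values were 29.9, 17.6 and 17.2 per Mb, and over the genome, up to the last listed region of each chromosome, 21.9, 17.3 and 20.1. The flanks differed between genes, with 54 Doxo regions at DUSP1, 50 at ATF3, 45 at JUNB and 42 at IER2, whose flanks overlap, and 16 to 28 at the other 6 genes. Those of ATF3 held 15 diMe-Doxo and 7 Acla regions, whereas those of KLF4 held 23 Doxo, 37 diMe-Doxo and 50 Acla regions. Of the genes with no region, FOS had 16 Doxo regions in its flanks and MYC 21. Just inside the 10 kb limit lay the farther upstream region of NR4A1, 7.4 kb from the span (Doxo log2 fold 4.75 in the authors' deposited table). Just outside lay a region 10.8 kb from EGR1, with a Doxo log2 fold of 2.71 in the authors' deposited table and no listing for the other drugs.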

How the data were processed

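ATAC-seq of K562 cells was processed by the authors with DiffBind on GRCh37, per the submitters' processing notes; the sources used here do not give the aligner, peak caller, normalization or test, nor versions. The 3 lists have no header, so columns were identified from their values. The deposited log2 values are mean normalized reads and the fold of treated over control; the deposited p-value and FDR are the authors'; the deposited counts are numbers of libraries with a called peak; the deposited signal is a whole read count multiplied by a factor of the library. Whether the start counts from 0 or 1 is not stated.

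Reads were recovered by dividing each signal by its library's step (100% whole within 0.1 reads). For the diMe-Doxo and Acla libraries the step is smaller than the lowest value and was found from the gaps between values. Regions in both the Doxo and diMe-Doxo lists were tested with edgeR 4.0.16 (glmQLFTest, R 4.3.3), on the authors' factors scaled through the shared controls (geometric mean over 2 libraries), with Benjamini-Hochberg adjustment, limit 0.05. Alternatives used TMM factors, limma 3.58.1, DESeq2 1.42.0, other span extensions, stricter limits and fewer libraries. Intervals of the pooled read ratios are exact binomial. Those of the log2 differences come from the edgeR estimate and its SE with a t distribution. Python 3.11.15, pandas 2.3.3, scipy 1.17.1 and matplotlib 3.10.9 were used. All 10 genes are named, with full values for the region with the lowest FDR at each gene and for regions inside spans. The members and lists were chosen with earlier results of these data known. A search for motifs inside the listed regions and a wider gene list need a GRCh37 genome and were not run; promoter motifs were added after the data had been seen.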

Additional observations from a re-analysis of the deposited data

Results flagged for a closer look

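The Doxo and diMe-Doxo gains over the same controls differed by a test of the difference itself (edgeR adjusted p at most 0.05) at 5 of 8 member regions, where 28.8% of all shared regions were higher with Doxo. The log2 difference was 2.70 inside KLF4, 1.93 at the nearer region upstream of NR4A1, 1.22 and 1.08 at the regions 5.1 and 32.6 kb into NR4A1, and 0.90 at the region 2.8 kb downstream of ATF3. The ATF3 call was lost in 4 alternatives, with edgeR adjusted p of 0.131 with TMM factors, 0.372 without Doxo library 1 and 0.165 without diMe-Doxo library 2, and a DESeq2 adjusted p of 0.325 (range over all alternatives 0.00541 to 0.372). At KLF4 and at the upstream NR4A1 region the control libraries stood at 18 and 1 and at 8 and 1 reads; the control libraries enter these differences only through the common scale. Over the higher control library alone, the log2 fold was 4.08 with Doxo and 1.29 with diMe-Doxo at KLF4, and 3.33 with Doxo and 1.30 with diMe-Doxo at that NR4A1 region.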

How the results depend on the processing

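Without extension of the spans, regions numbered 7 with Doxo, 4 with diMe-Doxo and 3 with Acla, at 4 genes, with 3 for Doxo alone, 1 for Doxo and diMe-Doxo and 0 for Doxo and Acla. With 50 kb they numbered 44, 18 and 17, with 23 for Doxo alone, 13 for all 3 drugs, 3 for Doxo and Acla and 1 for Acla alone. Under the stricter limits (FDR 0.01, log2 fold 2) they numbered 10, 3 and 2, with 2 for all 3 drugs, 0 for Doxo and diMe-Doxo, 0 for Doxo and Acla and 1 for diMe-Doxo alone. The median Acla log2 fold was 2.62 without extension and 2.40 with 50 kb. Over the higher control library the medians were 2.37 with Doxo, 1.87 with diMe-Doxo and 1.24 with Acla, a setting chosen after seeing the data, as were those without a control library and those scaled through 1 control library. Leaving out a drug or control library gave medians of 2.87 to 3.41 with Doxo, 2.07 to 2.95 with diMe-Doxo and 1.24 to 3.05 with Acla.

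Between Doxo and diMe-Doxo, all shared regions called lower numbered 940, against 3557 with TMM factors, 1514 with DESeq2 and 207 to 813 without a library; those called higher numbered 9558, and 7443 to 9041 without a library. Member regions called higher numbered 3 with DESeq2 (19.6% of all shared regions; 5.1 kb into NR4A1, 0.86, DESeq2 adjusted p 0.0647) and 4 to 5 without a library. The region 3.7 kb downstream of ATF3 turned to -0.30 with TMM factors, -0.32 with DESeq2 and -0.066 when scaled through control library 2, and ranged from -0.025 to 0.089 without a library; JUN ranged from -0.87 to 0.32, and DESeq2 gave it no adjusted p. The causes were not tested, and fits that leave out a library rest on fewer samples. No paired analysis was possible because the labels give 1 sample per group and do not number the libraries. Motif counts over whole regions were not run. Low reads in the controls limit all folds over control.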

Other observations

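Between 10 and 50 kb from the spans lay 28 further regions at 8 of the 10 genes, 27 in the Doxo list, 10 in the diMe-Doxo list and 12 in the Acla list; these distances were looked at after the data had been seen. IER2 had a region 13.9 kb from its span (chromosome 19 at 13246083-13247092) with 106 and 122 normalized reads in Doxo libraries, against 1.44 and 2.77 in the controls, a higher log2 fold (5.76 in the authors' deposited table, FDR 7.54e-08) than any of the 17 regions. Acla listed it at 2.46 in the authors' deposited table, and diMe-Doxo did not list it. NR4A1 was flanked on both sides by wide regions of all 3 lists. The first (52399769-52402236) had log2 folds of 5.24, 2.33 and 2.11 for Doxo, diMe-Doxo and Acla in the authors' deposited tables, and the other (52472798-52475450) had 4.78, 2.60 and 2.20. Their controls were again unequal, 17.3 and 1.39 normalized reads at the first and 1.44 and 23.6 at the other on the Doxo scale.

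JUNB, with no region within 10 kb, had 5 Doxo regions between 10 and 50 kb, 2 of them also listed for diMe-Doxo and 2 for Acla. MYC had 2 regions there, 1 in the Doxo list, 1 in the diMe-Doxo list and 2 in the Acla list. FOS and JUN had 0 at these distances. The MYC region listed for Acla alone is the only region within 50 kb of any of the 10 genes that is not in the Doxo list.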
